A study of Mus musculus with 18 samples.

Results

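Small RNA was counted from RNAome libraries of mouse embryonic stem (ES) cells given 2.5 µM cisplatin, against the same cells given the vehicle DMSO. Cisplatin is a platinum drug that crosslinks DNA. RNAome sequencing reads long and small RNA from 1 library, made from total RNA that was depleted of rRNA, fragmented and ligated to small RNA adapters. The members of the comparison were 6 libraries of 18 in the series, 3 cisplatin, coded 8.3.3, 8.4.3 and 8.5.3, and 3 control, with the codes 8.4.16, 8.5.16 and 8.6.16. Its measured features were 493 mature microRNA names, listed as 5455 sequences of 17 to 33 nt, and 50 tRNA anticodons, listed as 3491 sequences of 14 to 33 nt. The counts of the sequences under 1 name were summed. Another 18955 entries, which the table marks as Fragment, were left out.

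Cells of both groups were of strain C57BL/6, deficient in HPRT (an enzyme of purine salvage), at passage 19 to 22, and were grown for 2 passages on feeder cells and 1 on gelatin. The controls therefore carry the same HPRT deficiency. How long the cells were exposed is not given in the sources used. The labels do not state whether the 3 samples of each group were separate cultures, and if they were not, the p-values below measure technical spread alone.

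Transfer RNAs carry amino acids to the ribosome, and stressed cells can cut mature tRNAs in the anticodon loop into long fragments. Mature tRNA-His is known for a guanosine that is added to its 5′ end after transcription. MicroRNAs guide Argonaute proteins to mRNAs through a seed, bases 2 to 8 counted from the 5′ end. In mouse ES cells the miR-290 cluster is the dominant pluripotency microRNA locus, and after DNA damage p53 is known to induce the miR-34 family.

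The sequences on which the tRNA results turn are the 4 most abundant listed under tRNA-HisGTG, which together hold 63.3% of its counts, and the most abundant under tRNA-AspGTC, tRNA-ValCAC, tRNA-GlyCCC and tRNA-GlyGCC. Abundance is the count over all 6 libraries, so a high level in 1 group helps a sequence to be chosen. Their changes are therefore no separate support for those of the anticodons. The sequences are given 5′ to 3′ as deposited, and capitals mark the run of 29 nt that the 4 tRNA-HisGTG sequences share.
HisGTG first: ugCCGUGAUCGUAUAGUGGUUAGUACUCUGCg
HisGTG second: CCGUGAUCGUAUAGUGGUUAGUACUCUGC
HisGTG another, of 32 nt: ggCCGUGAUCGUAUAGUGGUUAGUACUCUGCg
HisGTG, of 33 nt: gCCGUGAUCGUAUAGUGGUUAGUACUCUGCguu
AspGTC: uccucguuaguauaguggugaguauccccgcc
ValCAC: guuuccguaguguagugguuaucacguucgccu
GlyCCC: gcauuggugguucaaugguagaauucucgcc
GlyGCC: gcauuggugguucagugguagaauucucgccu
Exact matches on genome build NCBIM37, the assembly called mm9, numbered 8 for the second and the 33 nt tRNA-HisGTG sequences (chromosomes 2, 3 and 4) and 0 for the other two. The AspGTC sequence matched at 14 places, the GlyGCC sequence at 11, the ValCAC sequence at 7 and the GlyCCC sequence at 2, so a sequence cannot be given to 1 gene.

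The microRNA sequences shown next are from RefSeq (GRCm38.p6), with the seed in capitals, and were chosen because the results below refer to their seeds or their neighbourhood.
miR-379-5p, chr12:109709065-109709085, + strand: uGGUAGACuauggaacguagg
miR-379-3p, chr12:109709102-109709123, + strand: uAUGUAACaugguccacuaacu
miR-411-3p, chr12:109710225-109710246, + strand: uAUGUAACacgguccacuaacc
miR-382-5p, chr12:109733781-109733802, + strand: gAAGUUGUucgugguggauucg
miR-294-3p, chr7:3220691-3220712, + strand: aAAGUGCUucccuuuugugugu
miR-295-3p, chr7:3220815-3220837, + strand: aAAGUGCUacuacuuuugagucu
miR-302b-3p, chr3:127545275-127545297, + strand: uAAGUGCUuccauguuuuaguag
miR-34a-5p, chr4:150068473-150068494, + strand: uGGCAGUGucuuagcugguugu
miR-200b-3p, chr4:156055685-156055706, − strand: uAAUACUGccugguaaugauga
miR-429-3p, chr4:156053916-156053937, − strand: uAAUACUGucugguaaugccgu
miR-183-5p, chr6:30169711-30169732, − strand: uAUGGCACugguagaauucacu
Each interval is annotated as a mature microRNA. Of the 493 names in the table, 391 were matched to RefSeq, and for 231 the most abundant deposited sequence was the RefSeq sequence.

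Table totals ran between 1587446 and 4515956 counts, of which 555675 to 1320480 belonged to the features tested. After a filter on low counts, 365 of 543 features were tested, namely 318 microRNAs and 47 tRNA anticodons. Levels are given as CPM, counts scaled to a library total that was itself adjusted by the trimmed mean of M-values (TMM), so that the levels of a library need not add up to the same sum. No microRNA or tRNA entry was listed below 1 in any library, although Fragment entries went down to 0. Among tRNA entries 32.7, 31.5 and 35.5% stood at 1 in the cisplatin libraries, against 55.1, 50.2 and 59.4% in the control libraries. Whether a listed 1 stands for a smaller count is not known, so the main counts are also given with these entries at 0. ES cell identity was read from the miR-290 cluster, whose summed level was 132183 ± 7056 CPM in cisplatin and 125945 ± 13058 CPM in control libraries (SD, n = 3 each). Of neural, muscle, liver and blood microRNAs, 4 names were matched, miR-9-5p, miR-124-3p, miR-124-5p and miR-142-5p, so muscle and liver were not covered. The matched names summed to 390 ± 65.6 CPM in cisplatin and 401 ± 4.49 CPM in control libraries. Most of this was miR-9-5p, at 346 ± 74.7 and 339 ± 4.82 CPM. Fibroblast microRNAs, which feeder cells carry, summed to 2133, 7246 and 7712 CPM in the cisplatin libraries, against 5308, 4606 and 7412 CPM in the control libraries. The library cisplatin 8.3.3 thus had the lowest fibroblast sum. These sums lay mostly in miR-10a-5p and miR-10b-5p, which together had 1385, 6193 and 6922 CPM in the cisplatin libraries. MiR-125b-5p was also lowest in 8.3.3 (97.9, 263 and 245 CPM in the cisplatin libraries). MiR-143-3p was not (406, 381 and 184 CPM), so the sum does not measure feeder cells alone. Cisplatin 8.3.3 also stood apart from the other cisplatin libraries in the lengths of its tRNA sequences, so results are given with and without it where it matters.

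Of the features tested, 5 passed an adjusted p of 0.05 (1.37%), of which 4 were higher in cisplatin libraries (1.10% of those tested) and 1 was lower (0.274%). The 4 were tRNA-HisGTG and the microRNA names miR-3963, miR-1957a and miR-3968, and the lower one was miR-126-5p. Without adjustment, 66 features had p under 0.05, and the median log2 fold change of all tested features was -0.05. Cisplatin libraries lay entirely above control libraries for 42 features (11.5%) and entirely below for 41 (11.2%). Every change here is a share of small RNA in bulk cells, in which fewer cells of a type and less RNA per cell cannot be told apart. Leaving out cisplatin 8.3.3 gave 19 features higher and 10 lower. Leaving out cisplatin 8.4.3 or 8.5.3, or control 8.4.16 or 8.6.16, gave 0 features in either direction with edgeR, with 52, 62, 49 and 77 features at an unadjusted p under 0.05. Leaving out control 8.5.16 gave 2 higher and 2 lower. With entries at the lowest listed value set to 0, 8 features were higher and 1 lower, and with upper quartile scaling 4 were higher and 0 lower (61 at an unadjusted p under 0.05).

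**Figure D1:**
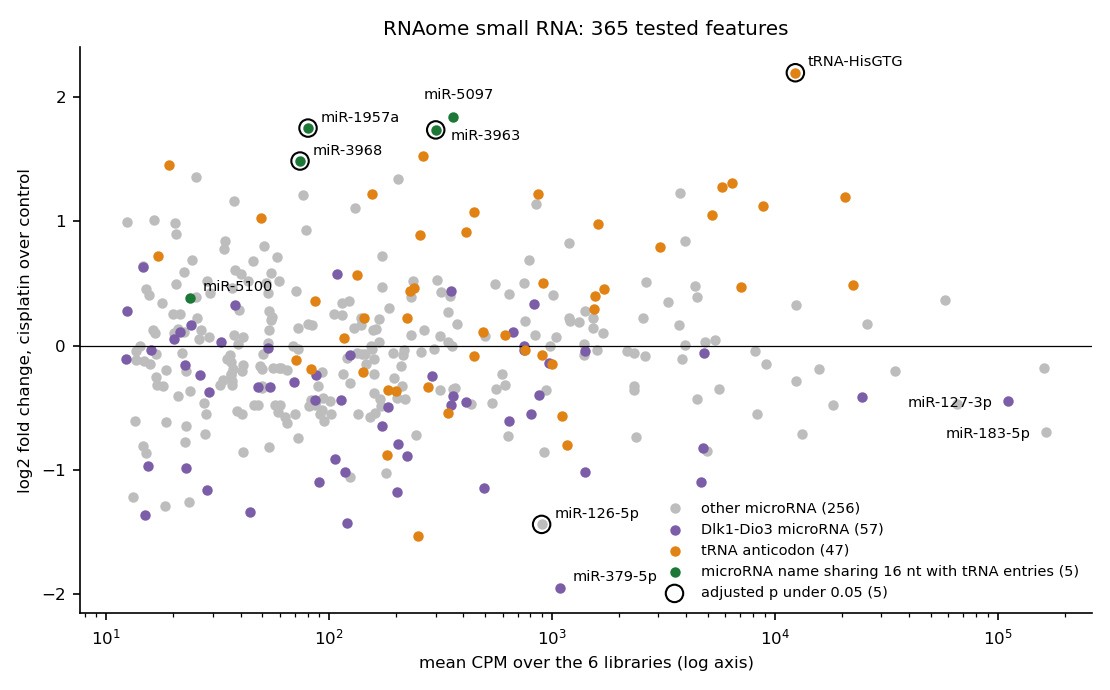
Log2 fold change of cisplatin over control (vertical axis) against mean CPM over the 6 libraries (horizontal log axis) for every tested feature, with circles round the 5 at an adjusted p under 0.05. tRNA-HisGTG stands at a log2 fold change of 2.20 and miR-126-5p at -1.44.

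The tRNA anticodon with the change that passed the test was HisGTG, the anticodon that reads histidine codons. It had 9363, 24531 and 26964 CPM in the cisplatin libraries, against 4556, 4355 and 4351 CPM in the control libraries. All cisplatin libraries lay above all control libraries, and the lowest cisplatin value was that of 8.3.3. The log2 fold change was 2.20 ± 0.38 (SE, adjusted p = 0.0173, edgeR). The sign held in all 6 fits that left out 1 library, and the adjusted p ran between 2.80e-05, without cisplatin 8.3.3, and 0.0968. It was above 0.05 without cisplatin 8.4.3 or 8.5.3 and without control 8.4.16 or 8.6.16. Over all alternatives tried it ran between 3.53e-06 and 0.208. The other anticodon for histidine in the table, HisATG, had a log2 fold change of -0.54 and did not pass.

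The 4 tRNA-HisGTG sequences were each higher in cisplatin libraries when every listed sequence was tested on its own. The first, with 37.1% of the counts, had 3287, 10792 and 11052 CPM in the cisplatin libraries, against 1049, 987 and 610 CPM in the control libraries. Its groups did not overlap, and its log2 fold change was 3.11 ± 0.49 (SE, adjusted p = 0.00225). The second rose by 1.70 (adjusted p = 0.0302), the other of 32 nt by 1.95 (adjusted p = 0.0188) and that of 33 nt by 1.91 (adjusted p = 0.0361), all on the log2 scale. Of 56 tRNA-HisGTG sequences tested, 28 were higher and 1 was lower, beside 119 higher (5.59%) and 16 lower (0.752%) among all 2127 sequences tested. Without cisplatin 8.3.3, 58 of 82 were higher. The count was 16 of 57 without cisplatin 8.4.3, 20 of 57 without cisplatin 8.5.3 and 12 of 82 without control 8.4.16. It was 6 of 82 without control 8.5.16 and 11 of 83 without control 8.6.16. Among all sequences, 293 of 2378 were higher without cisplatin 8.3.3, 91 of 2359 without cisplatin 8.4.3 and 107 of 2361 without cisplatin 8.5.3. The totals were 68 of 2456 without control 8.4.16, 29 of 2460 without control 8.5.16 and 91 of 2516 without control 8.6.16. The tRNA-HisGTG sequences overlap one another and are not separate measurements of the tRNA. A sequence high in 1 group alone could pass the filter on low counts, so these counts depend in part on which sequences entered.

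Several other anticodons had higher levels in all cisplatin libraries without passing the test. AspGTC, for aspartate, had 935, 1297 and 1383 CPM in the cisplatin libraries, against 654, 390 and 505 CPM in the control libraries. Its groups did not overlap, and the log2 fold change was 1.22 ± 0.31 (SE, adjusted p = 0.0623). GlyCCC, for glycine, had 7292, 14037 and 15017 CPM in the cisplatin libraries, against 5743, 4244 and 6705 CPM in the control libraries, again without overlap (log2 fold change 1.12 ± 0.34, SE, adjusted p = 0.0867). The AspGTC sequence printed above had 169, 449 and 548 CPM in the cisplatin libraries, against 49.8, 50.7 and 38.2 CPM in the control libraries, and rose by 2.94 ± 0.51 on the log2 scale (SE, adjusted p = 0.00375). It was chosen by its counts over all libraries, to which the cisplatin libraries gave most, so its rise is no separate support for that of the anticodon.

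The most abundant anticodons overlapped between the groups. ValCAC, for valine, had 14456, 29403 and 41870 CPM in the cisplatin libraries, against 8966, 11658 and 16842 CPM in the control libraries. Only cisplatin 8.3.3 lay within the control range, and the log2 fold change was 1.19 ± 0.39 (SE, adjusted p = 0.12). GlyGCC, for glycine, had 10145, 28451 and 40197 CPM in the cisplatin libraries, against 22356, 10792 and 23036 CPM in the control libraries. Here cisplatin 8.3.3 lay below every control library, and the log2 fold change was 0.49 ± 0.45 (SE, adjusted p = 0.622). The ValCAC sequence printed above held 79.4% of that anticodon's counts and had a log2 fold change of 1.12 (adjusted p = 0.133). The GlyGCC sequence had 0.18 (adjusted p = 0.879) and the GlyCCC sequence 1.39 (adjusted p = 0.138). Without cisplatin 8.3.3, the adjusted p was 0.00978 for ValCAC and 0.137 for GlyGCC, the lowest of their ranges over all alternatives, which reached 0.601 and 0.979.

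A further 3 anticodons were named after their values were seen. GluTTC, for glutamate, had 5490, 10394 and 11473 CPM in the cisplatin libraries, against 3576, 2876 and 4609 CPM in the control libraries (log2 fold change 1.31 ± 0.34, SE, adjusted p = 0.0623). LysTTT, for lysine, had 7568, 8025 and 5622 CPM in the cisplatin libraries, against 3136, 3351 and 3757 CPM in the control libraries (log2 fold change 1.05 ± 0.28, SE, adjusted p = 0.0642). Neither overlapped, and for LysTTT the lowest cisplatin library was 8.5.3 and not 8.3.3. ArgCCT, for arginine, was the 1 anticodon with all cisplatin libraries below, at 178, 139 and 66.4 CPM, against 552, 321 and 245 CPM in the control libraries (log2 fold change -1.54 ± 0.41, SE, adjusted p = 0.0646). Small RNA sequencing of the same RNA samples, given below, had the opposite direction for ArgCCT.

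Over all anticodons, 47 of 50 were tested, 1 was called higher and 0 lower, and 16 had an unadjusted p under 0.05 with edgeR. The median log2 fold change was 0.44, with 32 positive and 15 negative, beside -0.05 over all features. All cisplatin libraries lay above all control libraries for 14 anticodons and below for 1, beside 42 (11.5%) and 41 (11.2%) of all 365 features. Without cisplatin 8.3.3, edgeR called 10 anticodons higher and 1 lower, out of 19 and 10 features, while without cisplatin 8.4.3 or 8.5.3, or control 8.4.16 or 8.6.16, it called 0. DESeq2 called 11 higher and 1 lower, out of 22 and 11 features. Without the filter on low counts 6 were higher and 1 lower, and with entries at the lowest listed value set to 0 there were 4 higher and 0 lower. Summed tRNA levels were 102617, 156537 and 173847 CPM in the cisplatin libraries, against 78924, 65093 and 88679 CPM in the control libraries. Of all microRNA and tRNA counts, tRNA took 12, 16.4 and 16.4% in the cisplatin libraries, against 8.44, 6.51 and 7.11% in the control libraries. The means were 15.0 ± 2.55% and 7.35 ± 0.988% (SD, n = 3 each, two-sided exact permutation p = 0.1, the smallest that 3 against 3 allows). As a share of the whole table, Fragment entries included, tRNA took 2.60, 4.72 and 5.48% in the cisplatin libraries, against 2.56, 2.66 and 2.49% in the control libraries, which overlap (exact permutation p = 0.2). MicroRNAs took 19.1, 24 and 27.9% of the table in the cisplatin libraries, against 27.7, 38.2 and 32.5% in the control libraries (exact permutation p = 0.2). When tRNA counts were scaled among themselves, the median log2 fold change was 0.08 and ArgCCT was the 1 anticodon called, as lower (adjusted p = 0.0396, with a range of 0.0124 to 0.261 over all alternatives).

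The tRNA counts in cisplatin libraries lay mostly in long sequences, with 8.3.3 as the exception. Sequences of 28 to 33 nt held 45.3, 77.6 and 87.9% of tRNA counts in the cisplatin libraries, against 54.0, 49.5 and 63.2% in the control libraries (exact permutation p = 0.4). Sequences of 14 to 20 nt held 39.6, 10.7 and 3.19% in the cisplatin libraries, against 33, 34.6 and 21.5% in the control libraries. Cisplatin 8.3.3 had the smallest share of long and the largest share of short sequences of all 6 libraries, while 8.4.3 and 8.5.3 lay beyond every control library on the other side. Sequences that end in CCA, the end added to mature tRNAs, held 32.2, 15.9 and 7.57% of tRNA counts in the cisplatin libraries, against 27.1, 33.3 and 20.6% in the control libraries (exact permutation p = 0.4). For tRNA-HisGTG alone, sequences of 28 to 33 nt held 91.7, 96.4 and 97.0% in the cisplatin libraries, against 86.6, 81.3 and 80.0% in the control libraries (exact permutation p = 0.1). In that anticodon 8.3.3 lay above the controls with the others. The library protocol fragments RNA before ligation, so cuts made in cells and cuts made in the tube cannot be told apart in these lengths. No tRNA sequence was listed beyond 33 nt, and whether those of 33 nt end where the RNA ended is not known.

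**Figure D2:**
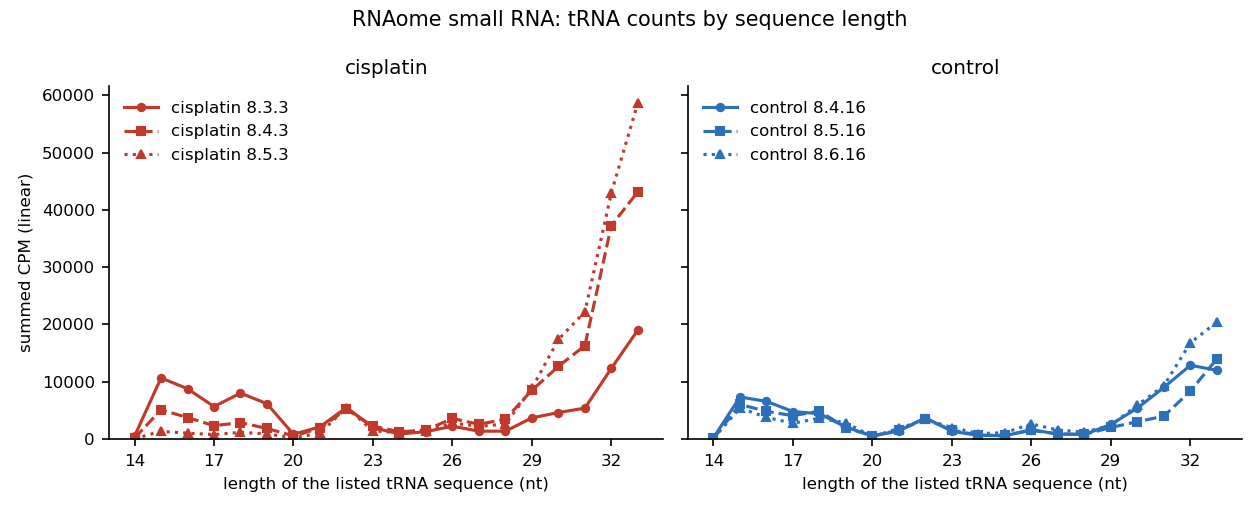
Summed CPM of tRNA sequences (vertical axis, linear) by listed length in nt (horizontal axis), 1 line per library, cisplatin in the left panel and control in the right. Cisplatin 8.4.3 and 8.5.3 have the highest lines at the longest lengths, and cisplatin 8.3.3 the highest at 15 nt.

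Among single tRNA sequences of 28 to 33 nt, 96 of 275 tested were higher in cisplatin libraries and 0 lower (edgeR, out of 382 sequences of all kinds with an unadjusted p under 0.05), with a median log2 fold change of 1.52. Of 190 sequences of 21 to 27 nt, 19 were higher and 0 lower, with a median of 0.41. Of 226 sequences of 14 to 20 nt, 0 were higher and 6 lower, with a median of -0.56. MicroRNA sequences had medians in the same order, -0.69 at 14 to 20 nt, -0.20 at 21 to 27 nt and 0.20 at 28 to 33 nt. Of the 26, 1252 and 158 microRNA sequences tested in these classes, 0, 3 and 1 were higher and 1, 9 and 0 lower. In all, 115 of the 119 sequences called higher were tRNA sequences, which were 275, 190 and 226 of the 2127 sequences tested in these length classes. Of all 2127, 5.59% were higher and 0.752% lower. After HisGTG, the anticodons with most were GluTTC with 15 of 63 tested, LysTTT with 15 of 65, GlyCCC with 13 of 62 and LysCTT with 7 of 36. Without cisplatin 8.3.3, 238 of 382 long tRNA sequences were higher, and 0 of 244 short ones were higher and 81 lower. Among all 2378 sequences of that fit, 293 were higher and 142 lower. Without cisplatin 8.5.3, 8 of 292 short tRNA sequences were higher and 17 lower, with a median of -0.13, beside 107 higher and 28 lower of all 2361. The other 4 fits without 1 library called 0 short tRNA sequences higher and between 6 and 16 lower, with medians of -0.82 to -0.36. Over all sequences those 4 fits called between 7 of 2456 and 24 of 2516 lower. Leaving out a library other than cisplatin 8.3.3 gave between 25 of 387 (without control 8.5.16) and 72 of 277 (without cisplatin 8.5.3) long tRNA sequences higher. None was lower in any of the 6 fits. Over all sequences, 29 of 2460 were higher without control 8.5.16 and 107 of 2361 without cisplatin 8.5.3. With entries at the lowest listed value set to 0, 96 of 275 long tRNA sequences were again higher, beside 117 of all 2127. The filter asks for enough counts in only as many libraries as a group holds, so a sequence high in 1 group alone could enter. These counts and medians therefore depend in part on which sequences entered, and the number tested changed with the library left out.

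The 3 microRNA names that rose, miR-3963, miR-3968 and miR-1957a, share sequence with the tRNA entries of the same table. The deposited sequences that hold most of the counts of the first and the second of these names are shown because they differ from the RefSeq mature sequences, and capitals mark the CCA at the end in the deposited and the seed in the RefSeq sequences.
miR-3963, most abundant deposited: ucgaaucccacuucugacaCCA
miR-3963, RefSeq, chr3:151023839-151023857, − strand: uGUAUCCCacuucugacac
miR-3968, most abundant deposited: ucgaaucccacuccugacaCCA
miR-3968, RefSeq, chr11:115447969-115447989, − strand: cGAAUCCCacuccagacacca
Neither deposited sequence had an exact match in NCBIM37. The one of miR-3963 held 59.3% of the counts of that name and the one of miR-3968 97.2%. All counts of both names lay in sequences that share at least 16 nt with entries of tRNA-LeuCAG, and all counts of miR-1957a in sequences that share as much with tRNA-CysGCA. The log2 fold change of LeuCAG itself was 0.45 and that of CysGCA 0.92, and neither passed the test. Other tRNAs shared as much with part of these counts. For miR-3963 this was tRNA-LeuCAA, with 93.9% of the counts and a log2 fold change of 0.72. For miR-1957a they were tRNA-AlaCGC and tRNA-AlaTGC, with 93.5% each and log2 fold changes of 0.30 and -0.08. CysGCA overlapped between the groups. Sequences ending in CCA held 97.1% of the counts of miR-3963, 100% of those of miR-3968 and 0% of those of miR-1957a.

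MiR-3963 had 413, 428 and 550 CPM in the cisplatin libraries, against 141, 167 and 105 CPM in the control libraries. The groups were far apart, and the log2 fold change was 1.74 ± 0.31 (SE, adjusted p = 0.0173). MiR-3968 had 106, 93.3 and 130 CPM in the cisplatin libraries, against 31.1, 49.9 and 33.7 CPM in the control libraries (log2 fold change 1.49 ± 0.32, SE, adjusted p = 0.0335). MiR-1957a had 78.7, 141 and 152 CPM in the cisplatin libraries, against 39.9, 34 and 35.9 CPM in the control libraries (log2 fold change 1.75 ± 0.34, SE, adjusted p = 0.0231). In each of the 3 all cisplatin libraries lay above the controls, and cisplatin 8.3.3 was the lowest of its group for miR-3963 and miR-1957a. The sign held in 6 of 6 fits without 1 library, and the adjusted p stayed under 0.05 in 2 of them for miR-3963 and in 1 each for miR-3968 and miR-1957a. The highest adjusted p in those fits was 0.0968 for miR-3963 and miR-1957a and 0.141 for miR-3968.

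By the same measure of over 50% of counts sharing 16 nt with a tRNA entry, 5 of the 318 tested microRNA names qualified, the other two being miR-5097 and miR-5100, named after their values were seen. MiR-5097 had 267, 898 and 527 CPM in the cisplatin libraries, against 161, 253 and 49.4 CPM in the control libraries (log2 fold change 1.84 ± 0.54, SE, adjusted p = 0.0783). Its counts lay in sequences shared with tRNA-LysTTT. MiR-5100, shared with tRNA-ThrAGT, had overlapping groups and a log2 fold change of 0.39 (adjusted p = 0.690). ThrAGT itself had -0.12 (adjusted p = 0.886). All 5 names had a positive log2 fold change, with a median of 1.74, the value of miR-3963, and 3 called. The 3 called are the names that drew attention to the shared sequence, so this count is no separate support. The measure added only miR-5097 and miR-5100, and neither was called. Among the other 313 microRNA names 127 were positive, 0 were called higher by edgeR, and the median was -0.08. Counts of these 5 names and of the tRNAs they match may be divided between the 2 kinds of entry by the counting, which the sources used do not describe. The list of early microRNA entries taken from tRNA or rRNA had 1 name in the table, miR-2137, with a log2 fold change of 0.01.

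**Figure D3:**
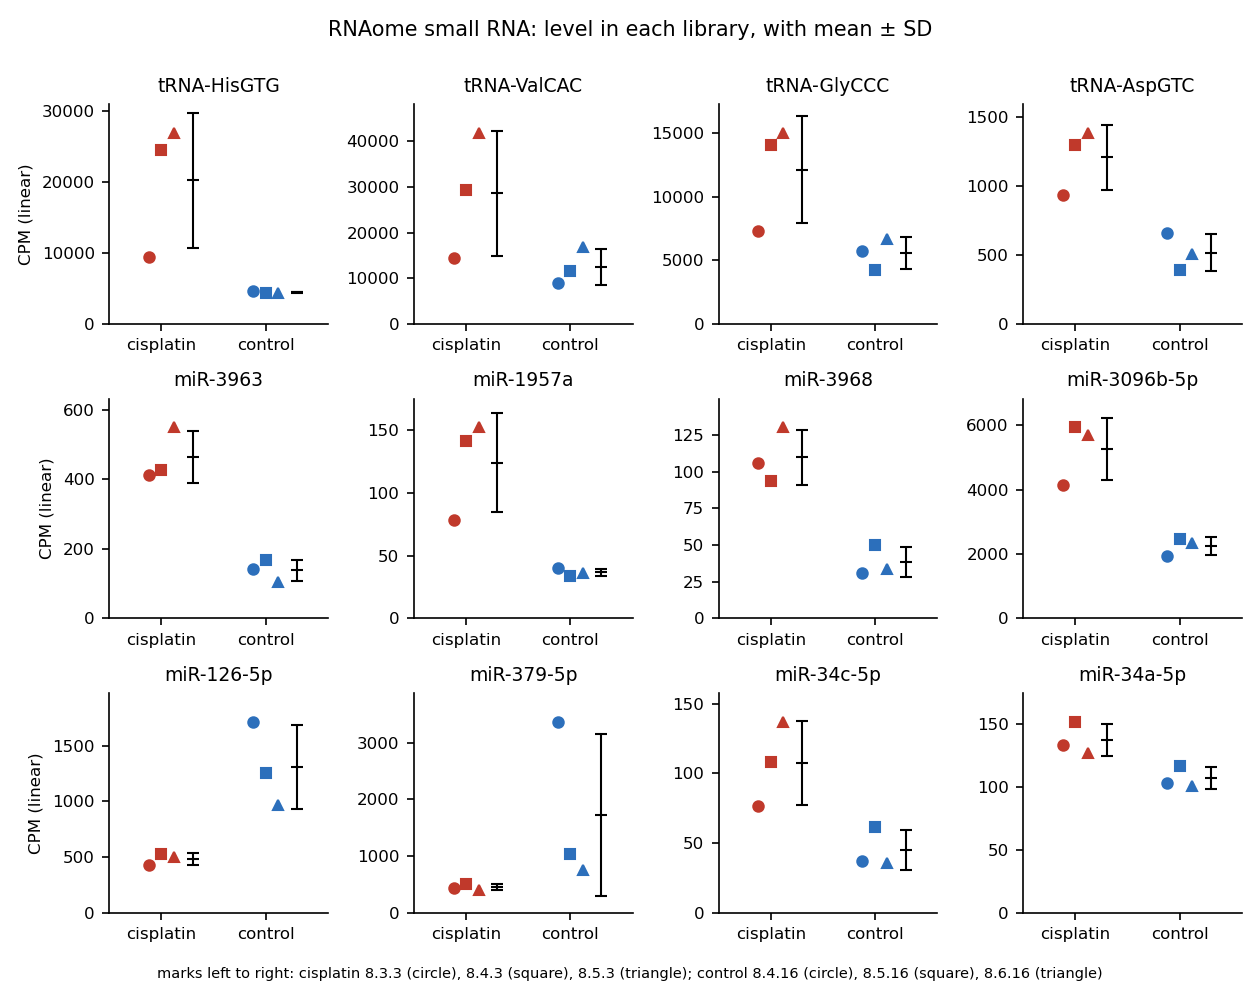
CPM in each library (linear axis from 0) for 12 features, cisplatin to the left of control, with mean ± SD beside the points. The 3 cisplatin libraries lie above the 3 control libraries for tRNA-HisGTG, miR-3963, miR-1957a and miR-3968 and below them for miR-126-5p, and the groups overlap for tRNA-ValCAC.

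MiR-126-5p, which comes from an intron of Egfl7 and is known from endothelial cells, was the 1 feature that fell. It had 427, 527 and 497 CPM in the cisplatin libraries, against 1714, 1257 and 965 CPM in the control libraries. The groups did not overlap, and the control libraries spread more widely than the cisplatin libraries. The log2 fold change was -1.44 ± 0.31 (SE, adjusted p = 0.0335). Its adjusted p was under 0.05 in 1 of 6 fits without 1 library, with the sign kept in 6 and a highest adjusted p of 0.192. MiR-3096b-5p was just outside the threshold, at 4146, 5932 and 5707 CPM in the cisplatin libraries, against 1943, 2468 and 2329 CPM in the control libraries. Its groups did not overlap (log2 fold change 1.23 ± 0.28, SE, adjusted p = 0.0508). With the test run on microRNAs alone, 5 names were higher and 5 lower of 320, miR-3096b-5p among them (adjusted p = 0.0173, with a range of 0.000516 to 0.535 over all alternatives).

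The imprinted Dlk1-Dio3 locus on chromosome 12 holds one of the largest microRNA clusters of the mouse genome, expressed from the maternal allele. Of its 80 names, 57 were tested, and 0 were called in either direction with edgeR, while 17 had an unadjusted p under 0.05. The median log2 fold change was -0.40, with 46 negative and 11 positive, beside -0.05 over all features. All cisplatin libraries lay below all control libraries for 17 names and above for 1, beside 41 (11.2%) and 42 (11.5%) of all 365 features. The summed level was 169197, 130790 and 116029 CPM in the cisplatin libraries, against 158748, 212819 and 200413 CPM in the control libraries. The sums overlap, since cisplatin 8.3.3 lay above control 8.4.16. With upper quartile scaling, which moved the median of all features to 0.12, the median of the cluster was -0.19. DESeq2 called 7 of the 57 lower, out of 11 of 365 features, and edgeR on microRNAs alone called 4 lower, out of 5 of 320. Without cisplatin 8.3.3 edgeR called 7 of 57 lower, out of 10 of 369 features, and without control 8.5.16 it called 2 of 59 lower. The other 4 fits without 1 library called 0. Without the filter on low counts, 1 of 80 names was higher and 6 were lower.

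Within that cluster the lowest p-values belonged to miR-379, from both arms of its hairpin, and miR-382. MiR-379-5p had 436, 502.6 and 399 CPM in the cisplatin libraries, against 3369, 1036 and 761 CPM in the control libraries (log2 fold change -1.95 ± 0.48, SE, adjusted p = 0.0582). One control library, 8.4.16, held more than the other two together, and without it the log2 fold change was -0.98. MiR-379-3p, from the other arm, had 114, 141 and 115 CPM in the cisplatin libraries, against 308, 269 and 263 CPM in the control libraries (log2 fold change -1.18 ± 0.29, SE, adjusted p = 0.0564). MiR-382-5p had 61.2, 68.0 and 65.1 CPM in the cisplatin libraries, against 254, 118 and 153 CPM in the control libraries (log2 fold change -1.43 ± 0.34, SE, adjusted p = 0.0564). None of the 3 overlapped between groups, and none passed the test. The seed AUGUAAC of miR-379-3p is shared by miR-411-3p, which was below the filter on low counts with 11, 5 and 3 counts in the cisplatin libraries and 1, 1 and 1 in the control libraries.

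Named after their values were seen, miR-411-5p had a log2 fold change of -1.10 (adjusted p = 0.0623), miR-370-5p of -1.34 (adjusted p = 0.0642), miR-434-3p of -1.02 (adjusted p = 0.0783) and miR-323-3p of -1.15 (adjusted p = 0.0938). All cisplatin libraries lay below all control libraries for each. The most abundant member, miR-127-3p, had 127072, 90701 and 63280 CPM in the cisplatin libraries, against 93387, 151925 and 138129 CPM in the control libraries. Its groups overlapped (log2 fold change -0.45, adjusted p = 0.529). MiR-541-5p, at -0.41 (adjusted p = 0.544), overlapped too. MiR-410-3p, at -0.82 (adjusted p = 0.146), did not.

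**Figure D4:**
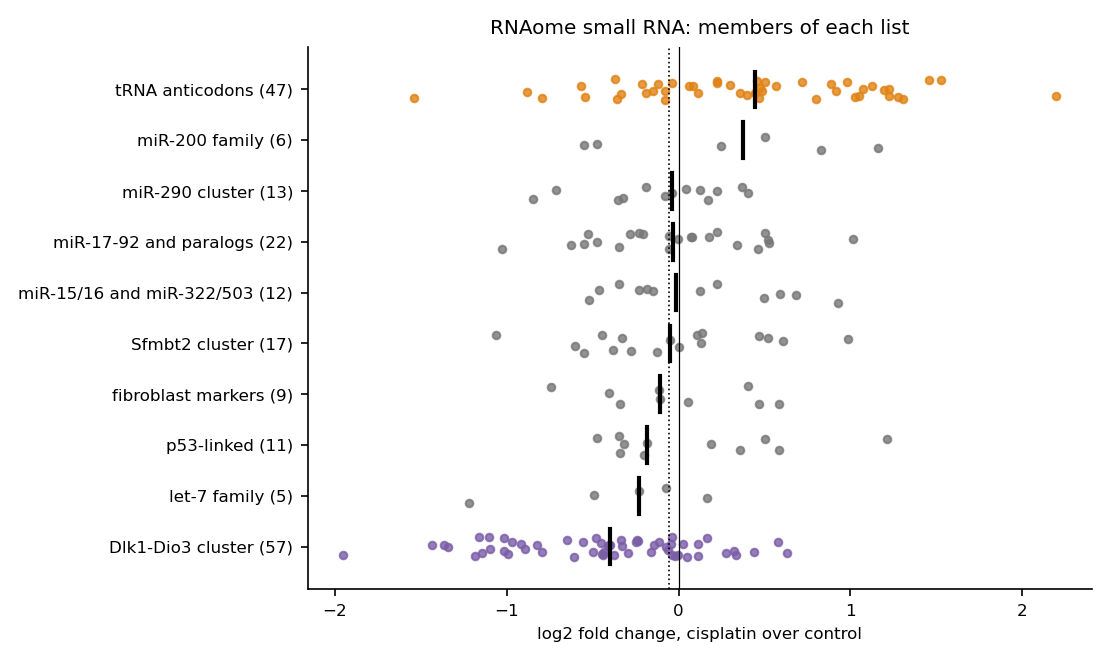
Log2 fold change of cisplatin over control (horizontal axis) for each tested member of 10 lists, with the list median as a bar and the median of all tested features as a dotted line at -0.05. The medians are 0.44 for tRNA anticodons and -0.40 for the Dlk1-Dio3 cluster, and the vertical scatter within a list carries no value.

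Of microRNAs whose transcription or processing p53 is known to raise, 11 of 19 names were tested and 0 were called with edgeR, with 1 at an unadjusted p under 0.05 and a median log2 fold change of -0.18. MiR-34c-5p, a direct p53 target, had 76.9, 108 and 137 CPM in the cisplatin libraries, against 37.4, 61.3 and 35.9 CPM in the control libraries. The groups did not overlap (log2 fold change 1.21 ± 0.34, SE, adjusted p = 0.0752). MiR-34a-5p, a further p53 target of the family, had 134, 152 and 127 CPM in the cisplatin libraries, against 103, 117 and 101 CPM in the control libraries, also without overlap (log2 fold change 0.36 ± 0.28, SE, adjusted p = 0.545). MiR-107-3p had 0.19 (adjusted p = 0.770), miR-192-5p -0.32 (adjusted p = 0.587) and miR-16-5p -0.35 (adjusted p = 0.553). Cisplatin libraries lay below the controls for miR-16-5p and overlapped them for the others of these 3.

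The ES cell microRNAs had high levels and no call. Of 14 names of the miR-290 cluster 13 were tested, with 0 called, 2 at an unadjusted p under 0.05 and a median log2 fold change of -0.04. MiR-294-3p had 17537, 16450 and 10412 CPM in the cisplatin libraries, against 11929, 18159 and 20592 CPM in the control libraries (log2 fold change -0.19, adjusted p = 0.811). MiR-291a-5p had 10075, 9527 and 10539 CPM in the cisplatin libraries, against 15819, 16338 and 17278 CPM in the control libraries. It was the 1 member with all cisplatin libraries below (log2 fold change -0.71 ± 0.26, SE, adjusted p = 0.146). MiR-292-5p had 0.37 (adjusted p = 0.552) and miR-295-3p 0.17 (adjusted p = 0.80). Added over 5 microRNAs with the seed AAGUGCU, of the miR-290 and miR-302 clusters, levels were 44371 ± 2666 CPM in cisplatin and 43973 ± 1724 CPM in control libraries (SD, n = 3 each). The miR-302 cluster, of the primed pluripotent state, had 3 of 5 names tested, a median of -0.16, and sums of 239 ± 24.7 CPM in cisplatin and 258 ± 44.4 CPM in control libraries.

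The most abundant microRNAs of the table were miR-183-5p and miR-182-5p, from 1 cluster known from sensory cells and also present in ES cells. MiR-183-5p had 94272, 123766 and 159460 CPM in the cisplatin libraries, against 178931, 177428 and 253980 CPM in the control libraries. All cisplatin libraries lay below, yet the spread within groups was wide (log2 fold change -0.69 ± 0.32, SE, adjusted p = 0.272). MiR-182-5p overlapped, with a log2 fold change of -0.18 (adjusted p = 0.832). MiR-191-5p had -0.47 (adjusted p = 0.514) and miR-92a-3p -0.21 (adjusted p = 0.770), both with overlapping groups.

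MiR-200b-3p, an epithelial microRNA that restrains the Zeb repressors, had 1382, 1485 and 1714 CPM in the cisplatin libraries, against 1071, 962 and 543 CPM in the control libraries. The groups did not overlap (log2 fold change 0.83 ± 0.31, SE, adjusted p = 0.149). MiR-429-3p, with the same seed AAUACUG, overlapped at 0.24 (adjusted p = 0.733), and miR-200a-3p, with the seed AACACUG of the other branch of the family, overlapped at -0.55 (adjusted p = 0.519). Of 8 names of the miR-200 family 6 were tested, with 0 called, 2 at an unadjusted p under 0.05, and a median of 0.37. Their sum was 1925 ± 150 CPM in cisplatin and 1247 ± 400 CPM in control libraries (SD, n = 3 each).

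The remaining lists had 0 members called in either direction by edgeR. Of the miR-17-92 cluster and its paralogs, which promote growth, 22 of 25 names were tested (median -0.03, 2 at an unadjusted p under 0.05). Of let-7, which Lin28 restrains in ES cells, 5 of 9 were tested (median -0.23, 1 at an unadjusted p under 0.05). Of the Sfmbt2 cluster 17 of 30 were tested (median -0.05, 2 at an unadjusted p under 0.05). Of miR-15/16 and the related miR-322 cluster, which restrain the cell cycle, 12 of 17 were tested (median -0.01, 1 at an unadjusted p under 0.05), and of the miR-130 family 5 of 7 (median -0.01, 0 at an unadjusted p under 0.05). Of miR-23/27/24 and miR-21, 9 of 12 were tested (median 0.00, 3 at an unadjusted p under 0.05). In that list miR-27b-3p had -0.73 (adjusted p = 0.146) and miR-21a-3p -1.26 (adjusted p = 0.142), both with all cisplatin libraries below the controls. MiR-24-2-5p, named after its values were seen, had 0.90 (adjusted p = 0.226), with all cisplatin libraries above the controls. Of fibroblast microRNAs 9 of 12 were tested (median -0.11, 0 at an unadjusted p under 0.05) and of markers of other tissues 2 of 4 (median -0.22, 0 at an unadjusted p under 0.05).

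The same 6 RNA samples were also read by small RNA sequencing, in libraries made with a kit for small RNA alone, and the difference of the cisplatin effect between the 2 library types was tested as an interaction. In small RNA sequencing both groups carried the same 3 indexes, so its libraries came from more than 1 pool. The labels do not assign libraries to pools, and a part of pools in these differences was not tested. All 6 RNAome indexes differed. In a fit without pairing by sample code, the difference passed for 7 of 498 features (1.41%), each at an adjusted p of 0.0257. Of these, 3 had a more positive (0.602%) and 4 a more negative (0.803%) effect in RNAome libraries. With the sample code as a block, 0 passed in edgeR, with adjusted p of 0.0769 or 0.0784 for these 7 and 87 features at an unadjusted p under 0.05. MiR-1957a, miR-3096b-5p and miR-126-5p were among the 7. In small RNA sequencing they had log2 fold changes of -0.11, 0.01 and 0.05 (adjusted p = 0.812, 0.971 and 0.805), and all 3 overlapped between groups there.

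TRNA-HisGTG was higher after cisplatin in small RNA sequencing too, with 4199, 5415 and 5805 CPM in the cisplatin libraries, against 2541, 2836 and 1902 CPM in the control libraries. Its log2 fold change there was 1.08 ± 0.17 (SE, adjusted p = 0.00847), and the difference from RNAome libraries was 1.11 ± 0.43 (SE, adjusted p = 0.198). MiR-3963 rose by 0.51 on the log2 scale in small RNA sequencing (adjusted p = 0.0498), and its difference between library types had an adjusted p of 0.0502. MiR-3968 had 0.46 there (adjusted p = 0.0919), with a difference at an adjusted p of 0.0947. TRNA-ArgCCT, lower in RNAome libraries after cisplatin, was higher in small RNA sequencing, by 0.42 on the log2 scale (edgeR, adjusted p = 0.0483). Its difference between library types was -1.95 ± 0.49 (SE, edgeR interaction, adjusted p = 0.0651). The share of tRNA-HisGTG counts in sequences of 28 to 33 nt was 46.4, 45.7 and 40.9% in the cisplatin libraries of small RNA sequencing, against 47.0, 43.7 and 44.4% in its control libraries (exact permutation p = 0.8). Sequences of 14 to 20 nt there held 30.2 ± 1.77% after cisplatin and 22.3 ± 1.63% in controls (SD, exact permutation p = 0.1). In RNAome libraries they went the other way, at 1.56 ± 1.87% and 6.93 ± 2.07% (SD, exact permutation p = 0.1). The share of 21 to 27 nt was lower after cisplatin in both library types (exact permutation p = 0.1 each). None of the shares below 28 nt overlapped between groups. In small RNA sequencing the share over 33 nt was lower too. The longest listed tRNA sequence had 36 nt in small RNA sequencing and 33 nt in RNAome, so the length classes end at different places.

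Small RNA sequencing called 39 features higher (6.63%) and 11 lower (1.87%) of 588 tested. MiR-34c-5p rose there by 0.58 (adjusted p = 0.0459) and miR-34a-5p by 0.45 (adjusted p = 0.0483), with differences between library types of 0.62 (adjusted p = 0.369) and -0.09 (adjusted p = 0.879). MiR-200b-3p rose there by 1.48 (adjusted p = 0.00101), with a difference of -0.66 (adjusted p = 0.342). MiR-99b-5p rose there by 1.35 ± 0.18 (SE, adjusted p = 0.00724), while in RNAome libraries it had 14988, 10507 and 20157 CPM in cisplatin, against 22640, 25010 and 16007 CPM in control (log2 fold change -0.48 ± 0.32, SE, adjusted p = 0.491). That difference, -1.83 ± 0.38, passed the interaction test without the block. By list, small RNA sequencing called 13 tRNA anticodons higher of 45 tested (median 0.34) and, of 77 Dlk1-Dio3 names, 1 higher and 6 lower (median -0.20). It called 4 of 19 p53-linked names higher and 4 of 8 of the miR-200 family. The biological coefficient of variation, the spread between libraries of a group that counting does not give, was 0.302 in RNAome and 0.186 in small RNA sequencing.

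**Figure D5:**
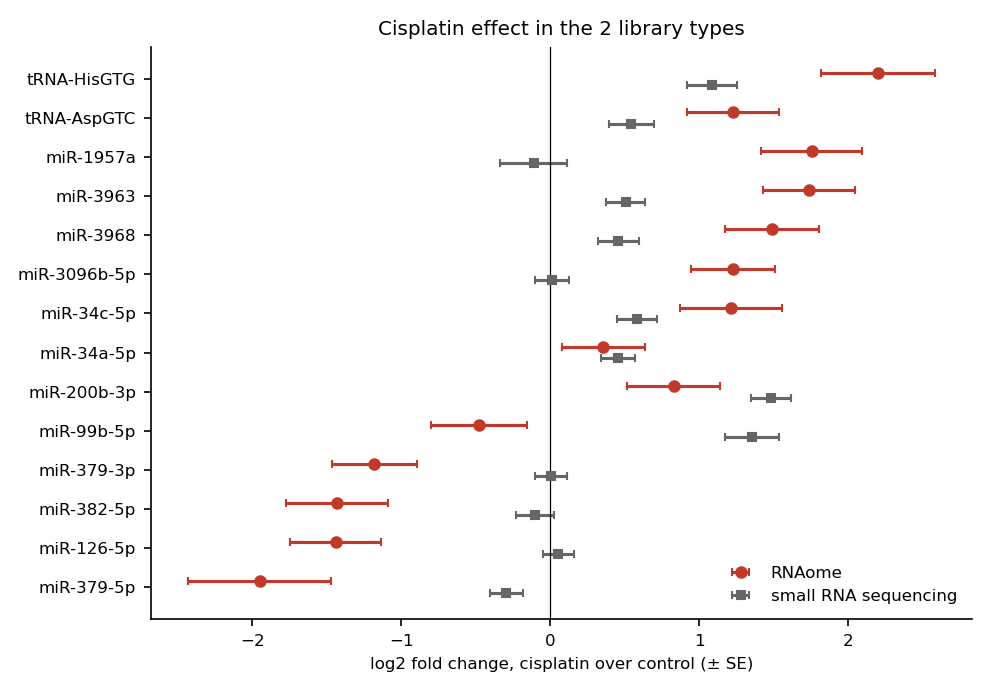
Log2 fold change of cisplatin over control with SE (horizontal axis) for 14 features, RNAome as red circles and small RNA sequencing as grey squares. MiR-126-5p, miR-379-3p, miR-1957a and miR-3096b-5p are at 0.05, 0.00, -0.11 and 0.01 in small RNA sequencing, and tRNA-HisGTG is at 2.20 in RNAome and 1.08 in small RNA sequencing.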

How the data were processed

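The values used were raw counts of reads per listed sequence as deposited by the authors. Genome build mm9 and the tools Bowtie, TopHat and edgeR are named in the submitters' processing notes, with neither version nor role. How reads were counted and filtered is not given in the sources used. For each mature microRNA name and each tRNA anticodon the counts were added up, and Fragment entries were left out. The 3 cisplatin and 3 control libraries were compared with the quasi-likelihood test of edgeR 4.0.16 in R 4.3.3 (TMM scaling, filterByExpr by group, two-sided, no covariate). P-values were Benjamini-Hochberg adjusted over all features tested, with a threshold of 0.05. The SE is the size of the log2 fold change over the root of the F statistic. CPM is given per library or as mean ± SD. Shares were compared with exact two-sided permutation tests (scipy 1.17.1, Python 3.11.15), whose smallest p with 3 against 3 is 0.1. The code was tested on simulated counts.

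The interaction used 12 libraries and the features listed in both small RNA tables. Since both library types came from the same RNA samples, samples of 1 code are paired by design. The correlation of their deviations from group means was 0.362, 0.179 and 0.0645 for the cisplatin samples and 0.101, -0.0714 and 0.150 for the control samples.

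The members and lists were chosen with earlier results of these data known. Named features were those called, the 10 smallest p, the 10 highest levels, the 4 most abundant of each list and of the anticodons, all arms of miR-34a, miR-34b, miR-34c, miR-21, miR-294 and miR-16, and those called in the interaction. The text gives part of them and says where a name falls outside the rule. Lists are described by counts and medians, without a test. Alternatives were RLE and upper quartile scaling, DESeq2 1.42.0, limma-voom (3.58.1), other filters, classes tested alone, blocks and libraries left out. Lowest listed values set to 0, the 4 libraries without the block, and single sequences without each library were added after the data were seen.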

Additional observations from a re-analysis of the deposited data

Results flagged for a closer look

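In the fit without pairing by sample code, 7 features passed for a difference in cisplatin effect between library types (edgeR interaction, adjusted p = 0.0257 each). Differences are given as RNAome minus small RNA sequencing of the same samples, on the log2 scale. With the sample code as a block, which keeps the pairing, none passed, at adjusted p of 0.0769 to 0.0784. The difference was 1.87 for miR-1957a, 1.23 for miR-3096b-5p and -1.50 for miR-126-5p, whose levels in RNAome libraries are given above. It was -1.18 for miR-379-3p, which in small RNA sequencing had 395, 358 and 347 CPM in the cisplatin libraries, against 385, 384 and 330 CPM in the control libraries. For miR-99b-5p, at -1.83, small RNA sequencing had 7746, 7790 and 6011 CPM in the cisplatin libraries, against 3567, 2699 and 2168 CPM in the control libraries.

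The differences of miR-1197-3p, at -2.65, and of miR-411-3p, at 2.76, rest on few counts. In RNAome libraries miR-1197-3p had 1, 1 and 1 counts after cisplatin, against 7, 11 and 3 in the controls, and miR-411-3p had 11, 5 and 3 after cisplatin, against 1, 1 and 1. A count of 1 is the lowest value listed for any microRNA, so these values have no interpretable size of change. In small RNA sequencing miR-1197-3p had a log2 fold change of -0.15 (adjusted p = 0.532) and miR-411-3p of -0.17 (adjusted p = 0.316).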

How the results depend on the processing

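The main test called 4 features higher and 1 lower. DESeq2 called 22 higher and 11 lower, no filter on low counts 16 and 8, and entries at the lowest listed value set to 0 gave 8 higher. Upper quartile scaling, under which the median log2 fold change of all features was 0.12, called 0 lower, microRNAs alone 5 lower, tRNA anticodons alone 0 higher, and single sequences 119 higher and 16 lower. With Fragment entries kept, edgeR called 0 and 0 (27 features at an unadjusted p under 0.05). Without 1 library the counts ran between 0 and 19 higher and between 0 and 10 lower. Codes of both groups that start alike (8.4 and 8.5) share only a number, with correlations of deviations of 0.0757 and -0.122. A replicate block of these 4 libraries called 0 and 0 (70 at an unadjusted p under 0.05), and the same 4 libraries without the block 10 and 4. RLE scaling, limma-voom and a minimum of 10 CPM stayed within 1.5 times of the main counts of 4 and 1.

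The interaction called 3 and 4. With the replicate block of the sample code it called 0 and 0, with RLE scaling 8 higher, with lowest values at 0 it called 20 and 13, and without 1 sample code between 0 and 1 higher and between 0 and 2 lower.

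Directions turned for 4 abundant or variable microRNAs that passed no test. MiR-182-5p had a log2 fold change of 0.030 with upper quartile scaling, 0.0012 with Fragment entries kept, 0.036 without cisplatin 8.3.3, 0.062 without control 8.6.16, 0.24 with the block and 0.25 in the same 4 libraries without it. MiR-191-5p had 0.0044 and 0.0017 in those last fits, miR-294-3p 0.0068 without cisplatin 8.5.3, and miR-200a-3p 0.14 without control 8.4.16. The cause was not tested. Over the values of named features under all alternatives, 640 kept direction and side of the threshold, 62 passed it newly, 36 no longer passed and 10 turned.

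With 3 libraries a group, exact tests of shares cannot fall below 0.1. Values at the lowest listed count limit low features.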
